A study of Mus musculus with 12 samples.

Results

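Hepatokines are proteins that the liver secretes to act on other organs. The 9 hepatokine genes described here are Fgf21, Angptl4, Angptl6, Fetub, Ahsg, Rbp4, Hamp, Inhbe and Lect2, and they were chosen by name, with every probe whose RefSeq accession carries one of these symbols. Each gene had 1 probe, so that 9 of 39429 probes belong to the group. The RNA came from livers of female C57BL/6N mice that were bought at 6 weeks of age, acclimated for 2 weeks and then kept on their diets for 6 months. Ctrl mice ate a low-fat formula diet with corn starch and sucrose as carbohydrate, RS mice ate that diet with added resveratrol, a plant polyphenol, DJ mice ate the formula with the starch and sucrose exchanged for rice of the cultivar Dongjin, and DJ526 mice ate it with the resveratrol-enriched rice DJ526 in their place. There were 3 mice a group, each on 1 one-colour array, and no agent other than the diet was given. DJ526 and DJ rice differ by the transferred gene as well as by resveratrol. The methods state that cages were allotted to the diets at random and also that the mice were. The cage of each mouse is not given in the sources used here.

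All 9 probes were well above background on all 12 arrays, none was saturated, and each array had 73.0% to 80.8% of its spots above that limit. Values are log2 of the scanner's processed signal relative to the array's 75th percentile, so that a difference of 1 is a doubling, and the level of one gene cannot be set against that of another. The arrays lay on 3 slides, which were scanned at different times. On slide 1 were all Ctrl arrays with DJ replicate 1, on slide 3 all DJ526 arrays with RS replicate 3, and on slide 2 the remaining 2 arrays each of RS and DJ. Diet and slide can therefore be told apart only in part, and values within slides are given beside the results they touch. With slide as a block, every estimate of a group against Ctrl passes through DJ replicate 1, the only other liver on slide 1. Every such estimate for DJ526 against another group passes through RS replicate 3. A supplementary sample list gives the array numbers of RS and DJ the other way round. The groups used here follow the labels, and the effect of an exchange is given beside the results it touches. All 7 hepatocyte markers (Alb, Apoa1, Ttr, Serpina1a, Cps1, Asgr1 and Hnf4a) were well above background on every array, and their summed level lay between 10.62 and 10.90. Passing this limit does not identify the tissue, since most spots pass it. Of 4 pancreas markers 2 (Cela1 and Ins2) passed it on every array, and of 3 adipose markers 1 (Lep) did. In whole liver, fewer cells of a type and less RNA per cell cannot be told apart.

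Hepatokines couple the state of the liver to the rest of the body. FGF21 is released in fasting, in amino acid shortage and after sugar, and acts through FGF receptors with the co-receptor beta-Klotho. Angptl4 blocks lipoprotein lipase, Rbp4 carries retinol with transthyretin, and the fetuins encoded by Ahsg and Fetub are cystatin relatives that bind mineral or inhibit proteases. Hepcidin, encoded by Hamp, makes cells degrade the iron exporter ferroportin, and the liver transcribes it in response to bone morphogenetic proteins (BMPs) and to interleukin 6. Inhbe encodes the activin E subunit, Lect2 encodes a chemotactic protein that binds the receptors Met and Tie1, and Angptl6 is an angiopoietin-like growth factor.

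Hepcidin had the largest differences among the 9 genes. Hamp was 2.25-fold higher in RS than in Ctrl and 2.17-fold higher in DJ526, without overlap between the 3 mice of either group and the 3 Ctrl mice, and it was 1.74-fold higher in DJ, with overlap. Of the other 8 genes, 7 differed from Ctrl by no more than 0.34 on the log2 scale in any group, and Fgf21 by no more than 0.51 (-0.51, in RS). No hepatokine passed the adjusted threshold of 0.05 in any of the comparisons. limma called 0 of the 9 genes, with Benjamini-Hochberg adjustment over all probes, in RS, DJ and DJ526 against Ctrl, in DJ526 against DJ and against RS, in the interaction of resveratrol with the diet, in rice against starch and sucrose, in resveratrol against no resveratrol and in the test for any difference among the 4 groups. The share of all probes called was 0.0% in RS and in DJ against Ctrl, 0.00507% in DJ526 against Ctrl, 0.0101% against DJ, 0.00761% against RS, 0.0% in each of the 3 contrasts over all groups and 0.00507% for any difference.

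At an unadjusted p under 0.05, 1 hepatokine (Hamp) differed between RS and Ctrl where 6.0% of all probes did, 2 (Hamp and Lect2) differed between DJ and Ctrl beside 5.22%, and 1 (Hamp) differed between DJ526 and Ctrl beside 10.8%. Between DJ526 and DJ it was 1 (Lect2, lower) beside 9.8%, and between DJ526 and RS it was 0 beside 5.5%. Lect2 and Ahsg, 2 of 9, met this limit for the interaction of resveratrol with the diet, beside 6.09% of probes. Hamp alone met it for resveratrol against no resveratrol, beside 10.1%, and for any difference among the groups, beside 7.7%, while 0 met it for rice against starch and sucrose, beside 4.57%. With slide blocked, the counts were 1 (Hamp) in RS against Ctrl, 1 (Angptl4, by 0.80) in DJ526 against RS and 0 in the other comparisons. That value of Angptl4 is the DJ526 mean against RS replicate 3 alone. In the main fit and the fit with slide blocked, at most 2 of the 9 genes met the limit in any comparison. Among other settings, the count was 3 in DJ against Ctrl with a filter on dim probes. It was also 3 in DJ526 against DJ with normexp background correction. With so few genes nothing is read from these counts about the group. Groups did not overlap for 2 genes (Hamp and Ahsg) in RS against Ctrl beside 10.2% of all probes, for 2 (Ahsg and Lect2) in DJ beside 9.34%, and for 1 (Hamp) in DJ526 beside 20.6%. For DJ526 against DJ this held for 1 gene (Lect2) beside 18.4% and for DJ526 against RS for 1 (Inhbe) beside 11.1%. With 6 mice a side it held for 0 hepatokines, beside 0.554% of probes for resveratrol and 0.119% for rice. The median log2 difference over the 9 genes was 0.07 for RS, 0.15 for DJ and 0.02 for DJ526 against Ctrl, where all probes had 0.03, -0.02 and 0.02.

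**Figure D1:**
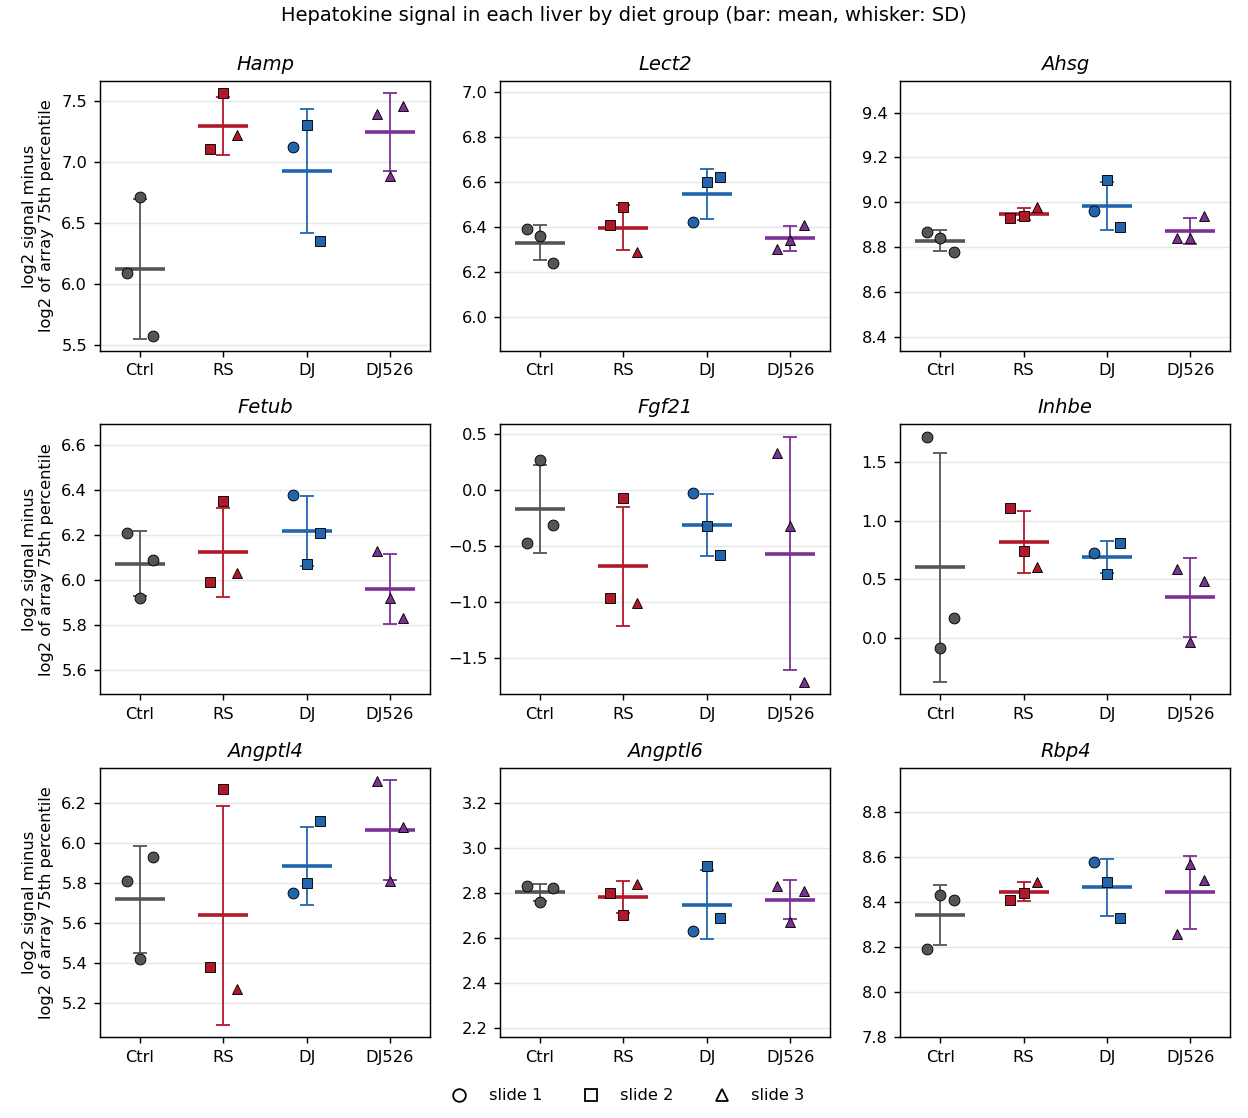
Each panel shows 1 hepatokine, with a point for each liver on the vertical axis (log2 signal relative to the array's 75th percentile) by diet group on the horizontal axis, a bar for the group mean and a whisker for the SD of 3 mice. Point shape gives the slide. The 3 RS and the 3 DJ526 livers lie above the 3 Ctrl livers for Hamp, whose Ctrl values run from 5.57 to 6.71, and the wide spread within groups for Fgf21 and Inhbe contrasts with the narrow spread for Ahsg, Lect2, Rbp4 and Angptl6; the vertical axes differ between panels.

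Hamp lies on chromosome 7 (GRCm38.p6, chr7:30942368-30944029, minus strand), next to its paralogue Hamp2 (chr7:30922372-30924181, minus strand). The 250 bases before the start of both genes are shown because the BMP and interleukin 6 pathways are known to act on this stretch of the hepcidin gene. The sequences are from RefSeq, on the gene's strand, with the core of the BMP response element, GGCGCC, and the STAT-type element TTCNNNGAA in capitals. The Hamp window is chr7:30944030-30944279 and the Hamp2 window is chr7:30924182-30924431.
Hamp: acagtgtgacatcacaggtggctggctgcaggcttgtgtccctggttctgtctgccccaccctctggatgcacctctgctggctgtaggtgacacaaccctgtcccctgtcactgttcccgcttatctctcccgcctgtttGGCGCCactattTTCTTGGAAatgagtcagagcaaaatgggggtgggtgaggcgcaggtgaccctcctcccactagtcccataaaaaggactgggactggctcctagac
Hamp2: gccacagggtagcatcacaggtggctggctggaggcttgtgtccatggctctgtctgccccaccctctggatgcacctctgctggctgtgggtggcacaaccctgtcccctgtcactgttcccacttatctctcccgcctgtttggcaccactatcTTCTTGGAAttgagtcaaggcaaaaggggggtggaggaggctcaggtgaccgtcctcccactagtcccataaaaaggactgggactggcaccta
Both motifs read the same on the 2 strands and do not overlap each other here. Hamp has GGCGCC from 109 to 104 bases before the start and TTCTTGGAA from 97 to 89 bases before it. Hamp2 has the STAT-type match from 94 to 86 bases before its start and no GGCGCC. In a global alignment the 2 windows were identical in 227 of 253 columns (89.7%), and within the BMP element they differed by G4A, counted from 1 at the first base of GGCGCC in Hamp, with the base of Hamp first. GGCGCC occurs in 9.59% of the 32851 RefSeq windows of the same length, and TTCNNNGAA in 7.02%. These are matches of letters, not measured binding sites.

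Hamp measured 6.09, 6.71 and 5.57 in the 3 Ctrl livers (mean 6.12 ± 0.572, SD, n = 3). RS livers had 7.10, 7.56 and 7.22 (7.29 ± 0.242), DJ livers 7.12, 7.30 and 6.35 (6.92 ± 0.505) and DJ526 livers 7.39, 6.88 and 7.46 (7.24 ± 0.317). Every RS and DJ526 liver was above the highest Ctrl liver, while DJ replicate 3 lay within the Ctrl range. Against Ctrl, limma gave 1.17 on the log2 scale for RS (standard error 0.304, 95% interval 0.50 to 1.84, adjusted p = 0.531). For DJ526 it gave 1.12 (interval 0.45 to 1.79, adjusted p = 0.237), and for DJ 0.80 (interval 0.13 to 1.47, adjusted p = 0.917). The exact permutation test over mice, two-sided, gave 0.1 for RS and for DJ526, the smallest p that 3 against 3 can give, and 0.2 for DJ. DJ526 and RS differed by -0.05 (interval -0.72 to 0.62), and DJ526 and DJ by 0.32 (interval -0.35 to 0.99). The 6 livers of mice that ate resveratrol exceeded the 6 others by 0.74 (interval 0.27 to 1.22, adjusted p = 0.329 from limma), and 3 of the 6 lay above all of the others. The step from DJ to DJ526 was smaller than that from Ctrl to RS by 0.85 (-0.85, interval -1.80 to 0.10, adjusted p = 0.855 from limma).

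Slide moved with Hamp. Its mean was 6.37 on slide 1, 7.08 on slide 2 and 7.23 on slide 3. Within slide 1, DJ replicate 1 exceeded the mean of the 3 Ctrl livers by 1.00, within slide 2 the 2 RS livers exceeded the 2 DJ livers by 0.51, and within slide 3 the DJ526 mean differed from RS replicate 3 by 0.02. In a fit with slide as a block, estimates against Ctrl were 1.51 for RS, 1.00 for DJ and 1.52 for DJ526, with limma's adjusted p between 0.445 and 0.547. Each of these blocked values rests on the single liver DJ replicate 1 for its link to Ctrl, so that they are not independent of each other. The DJ estimate fell to 0.52 without Ctrl replicate 3, and that for resveratrol to 0.37 with RS and DJ exchanged. Among lymphocyte markers, the B cell gene Ms4a1 had estimates against Ctrl of 1.35 for RS, 1.58 for DJ and 1.83 for DJ526, with overlap in each (adjusted p between 0.526 and 0.991 from limma), and the T cell gene Cd3e had -0.09, 0.14 and 0.05. Their part in the result was not tested.

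Hamp2, whose product is not known to act on iron balance as hepcidin does, had smaller estimates. It measured 6.70, 7.93 and 7.54 in Ctrl, 6.87, 7.96 and 8.31 in RS, 7.86, 8.02 and 7.38 in DJ and 7.59, 8.11 and 8.10 in DJ526, so that every group overlapped with Ctrl. The estimates against Ctrl were 0.32 for RS (interval -0.51 to 1.16), 0.36 for DJ (interval -0.47 to 1.20) and 0.54 for DJ526 (interval -0.29 to 1.38, and -0.19 with slide blocked). The intervals for DJ and DJ526 include the estimate of Hamp in the same diet and that for RS ends just below it, and the difference between the 2 paralogues was not tested. The transcripts are close copies, and whether a probe of one also binds RNA of the other was not tested.

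**Figure D2:**
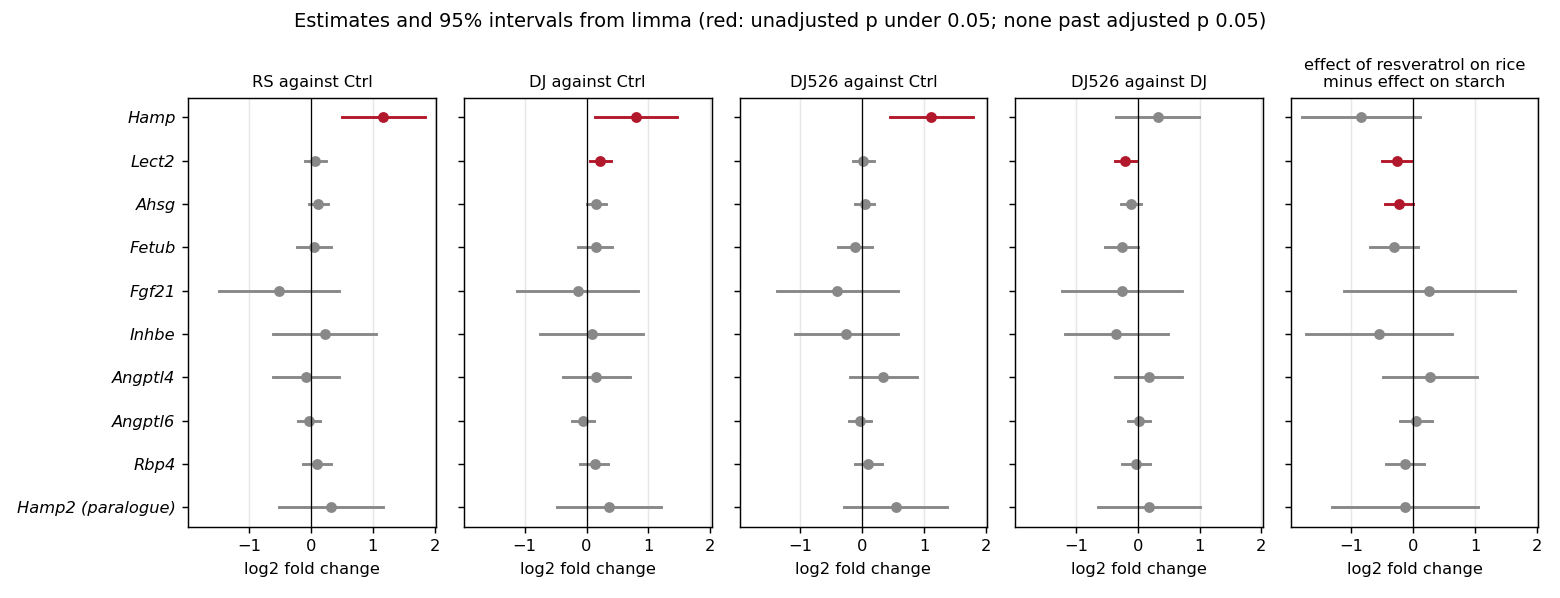
Points are log2 fold changes of the 9 hepatokines and of Hamp2 from limma and lines their 95% intervals, in 5 comparisons that share 1 horizontal axis. Hamp lies above 0 in the 3 comparisons with Ctrl, Lect2 lies above 0 in DJ and below 0 for DJ526 against DJ, and Hamp2 has intervals across 0 throughout.

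The regulators of hepcidin were read from a list of 15 genes of the BMP, interleukin 6 and iron-sensing pathways. All 15 were measured well above background on every array and 0 passed the adjusted threshold in any comparison. At an unadjusted p under 0.05, 3 of 15 were higher with resveratrol than without, namely Id1, Bmp6 and Smad7, and 0 were lower, beside 10.1% of all probes in either direction. Over the whole list, 9 of the 15 lay above 0 in this comparison, with a median of 0.07 beside 0.03 for all probes. Id1, a direct target of BMP signalling, differed by 0.65 (adjusted p = 0.397 from limma), Bmp6, the ligand that iron induces, by 0.41 (adjusted p = 0.376), and Smad7, a feedback inhibitor of the pathway, by 0.34 (adjusted p = 0.474). Id1 measured 0.36, 0.41 and 0.38 in Ctrl, 0.41, 1.56 and 1.21 in RS, 0.77, 0.46 and 0.28 in DJ and 1.80, 0.48 and 1.13 in DJ526. Thus 2 of the 3 RS livers and 2 of the 3 DJ526 livers stood above all Ctrl and DJ livers, and the others did not. Bmp6 measured -2.03, -2.13 and -2.47 in Ctrl and -1.71, -1.98 and -1.64 in DJ526, without overlap, and the difference was 0.43 (adjusted p = 0.446 from limma). Bmp6 changed direction in the fit with slide blocked, to -0.14 for resveratrol (adjusted p = 0.858 from limma) and to -0.38 for DJ526 against Ctrl (adjusted p = 0.68). Id1 and Smad7 kept theirs, at 0.77 and 0.31 for resveratrol (adjusted p = 0.682 and 0.743). All these blocked values pass in part through DJ replicate 1, where Bmp6 differed from the Ctrl mean by -0.51. With the RS and DJ labels exchanged, the values for resveratrol were 0.10 for Id1, 0.03 for Bmp6 and -0.10 for Smad7. Trf, which encodes transferrin, was higher without overlap in RS by 0.23 and in DJ by 0.25, with adjusted p of 0.686 and 0.819 from limma. Slide blocked, the estimates were 0.05 and 0.16. Tmprss6, the protease that restrains BMP signalling by cleaving hemojuvelin, differed from Ctrl by -0.04 for RS, 0.05 for DJ and -0.03 for DJ526. The list's median against Ctrl was 0.04 for RS, 0.01 for DJ and 0.08 for DJ526, and over all probes it was 0.03, -0.02 and 0.02.

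Across the 12 mice, Hamp and Id1 went together by rank. Spearman's rho was 0.86 (permutation p = 0.00064, adjusted p = 0.00768 over the 12 p-values of 6 relations) and Pearson's r was 0.67 (permutation p = 0.0155, adjusted p = 0.093). Without the 2 livers farthest from the median of Hamp, Ctrl replicates 1 and 3, r was 0.75. After subtracting the group means r was 0.49, and after subtracting the slide means 0.59, so that the relation was weaker within groups and within slides than over all arrays. The rank relation passed the adjusted threshold and the linear one did not. The permutations shuffled all 12 livers, so that differences between diets and between slides enter both p-values. No p and no rho was computed within groups or within slides.

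**Figure D3:**
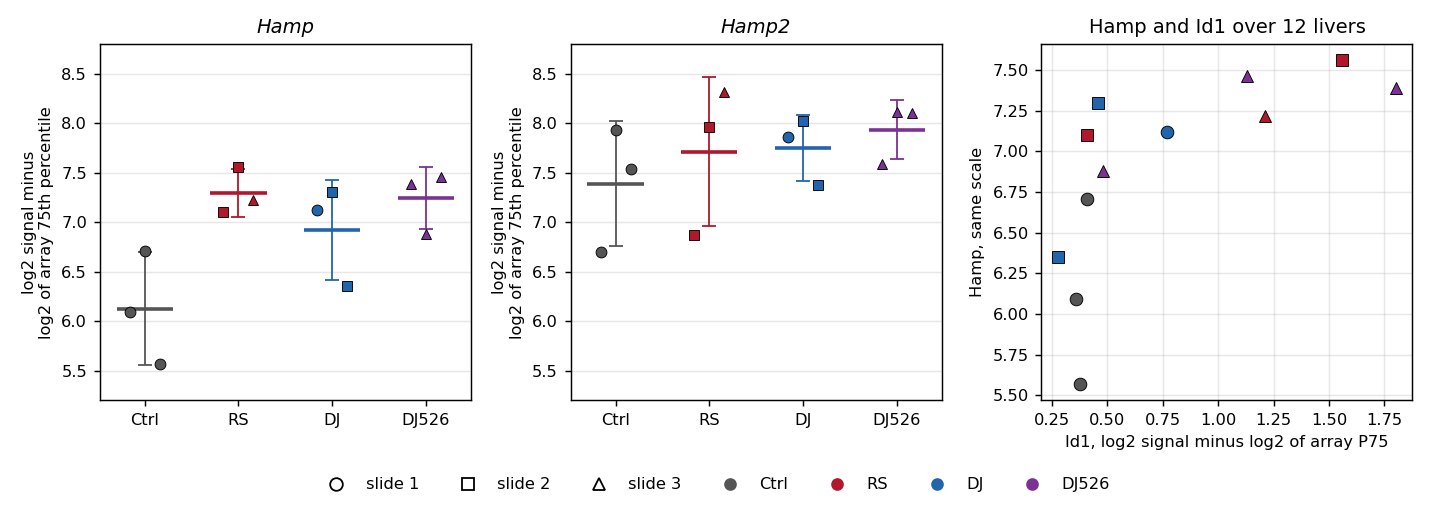
The first 2 panels show Hamp and Hamp2 in each liver by diet group on the same vertical scale (log2 signal relative to the array's 75th percentile), with bars for means and whiskers for SDs of 3 mice. The third panel sets Hamp on the vertical axis against Id1 on the horizontal axis, and the 4 livers with the highest Id1 are 2 RS and 2 DJ526 livers.

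**Figure D4:**
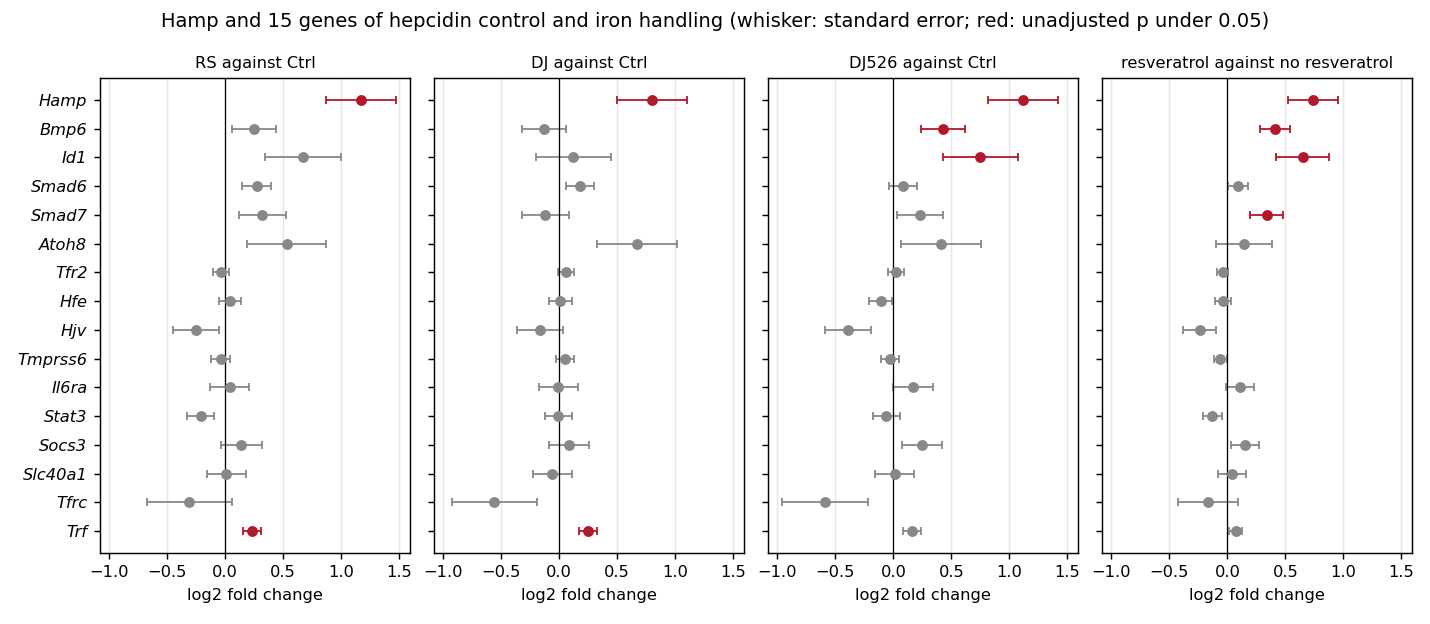
Log2 fold changes of Hamp and of the 15 genes of its regulation and of iron handling are shown with standard errors in 4 comparisons. With resveratrol against no resveratrol, Bmp6, Id1 and Smad7 lie to the right of 0, by 0.41, 0.65 and 0.34, while Tfr2, Hfe and Tmprss6 lie close to 0.

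Lect2 (chr13:56529734-56548559) showed small differences, in comparisons with DJ. The livers had 6.39, 6.36 and 6.24 in Ctrl, 6.41, 6.49 and 6.29 in RS, 6.42, 6.60 and 6.62 in DJ and 6.30, 6.34 and 6.41 in DJ526. The 3 DJ livers were above all Ctrl and DJ526 livers, DJ replicate 1 by very little. DJ exceeded Ctrl by 0.22 (interval 0.05 to 0.39, adjusted p = 0.886), and DJ526 was lower than DJ by 0.20 (-0.20, interval -0.37 to -0.02, adjusted p = 0.474, both from limma). Blocking on slide gave 0.09 (adjusted p = 0.864 from limma) and -0.10 (adjusted p = 0.823), and with the RS and DJ labels exchanged the values were 0.07 and -0.05, with overlap. RS replicates 1 and 2, on the slide of DJ replicates 2 and 3, were lower than those by 0.16 (-0.16). Of its 3 receptor genes, Met, Tie1 and Cd209a, 0 met an unadjusted p under 0.05 in any of the comparisons with Ctrl.

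The fetuins are neighbours on chromosome 16, Ahsg at chr16:22892015-22899451 and Fetub at chr16:22918382-22939768. Ahsg, fetuin-A, had the narrowest spread of the 9 genes, with a pooled SD within groups of 0.0656, below that of all but 3.27% of the probes well above background on every array. It measured 8.87, 8.84 and 8.78 in Ctrl, 8.93, 8.94 and 8.98 in RS, 8.96, 9.10 and 8.89 in DJ and 8.84, 8.84 and 8.94 in DJ526. RS and DJ did not overlap with Ctrl, though the lowest DJ liver, 8.89, lay just above the highest Ctrl liver, 8.87. The differences in means were 0.12 for RS (interval -0.03 to 0.28) and 0.16 for DJ (adjusted p = 0.953 from limma). DJ526 overlapped with Ctrl, at 0.05. The fit with slide blocked gave 0.07 for RS, 0.13 for DJ and -0.03 for DJ526. The intervals bound a change of Ahsg against Ctrl to no more than 0.31 on the log2 scale in each group, in the fit that leaves slide out. Fetub, fetuin-B, measured 6.21, 5.92 and 6.09 in Ctrl, 5.99, 6.35 and 6.03 in RS, 6.38, 6.07 and 6.21 in DJ and 6.13, 5.92 and 5.83 in DJ526. All groups overlapped, and the largest estimate between 2 groups was -0.26 for DJ526 against DJ (interval -0.53 to 0.01, adjusted p = 0.526 from limma, and -0.04 with slide blocked). Ahsg and Fetub showed no detectable relation over the 12 mice (r = 0.11, permutation p = 0.732, and rho = 0.14, permutation p = 0.665, adjusted p = 0.732 and 0.725). Without the 2 livers farthest from the median of Ahsg, r was 0.24. Of their 4 cystatin relatives, Kng1 and Cst3 were lower in DJ526 than in DJ without overlap, by 0.21 and 0.17 (-0.21 and -0.17, adjusted p of 0.48 and 0.507 from limma). With slide blocked, Kng1 differed by -0.22 and Cst3 by -0.00, and with RS and DJ exchanged Cst3 differed by -0.08.

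Hepatocyte markers were unequal in the same comparison. For DJ526 against DJ their median was -0.12, with 5 of the 7 lower and 2 higher. Alb and Serpina1a were lower without overlap, by 0.29 (-0.29, adjusted p = 0.23 from limma) and 0.18 (-0.18, adjusted p = 0.48), while Cps1 had 0.66 (adjusted p = 0.487) and Hnf4a 0.18 (adjusted p = 0.516), both with overlap. With slide blocked, Alb had -0.41 and Serpina1a -0.28, and with RS and DJ exchanged -0.20 and -0.10. Alb was also lower without overlap in DJ526 than in Ctrl (-0.18) and than in RS (-0.20), where the median of the 7 markers was -0.00 and -0.05. Serpina1a was higher without overlap in DJ than in Ctrl, by 0.20. The summed level of the 7 markers was 10.80 to 10.90 in DJ and 10.62 to 10.69 in DJ526. Its part in the values of Lect2 and of the fetuins was not tested.

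Fgf21 (chr7:45613890-45615490, minus strand) and Inhbe (chr10:127349402-127351848, minus strand) were the most variable of the 9 genes within groups. Both are known targets of ATF4, the factor of the amino acid and integrated stress responses, and both carry its composite element with C/EBP within the 250 bases before their start. The windows are chr7:45615491-45615740 and chr10:127351849-127352098, from RefSeq (GRCm38.p6) on the gene's strand, with matches to TGATGNAA or its reverse complement TTNCATCA in capitals.
Fgf21: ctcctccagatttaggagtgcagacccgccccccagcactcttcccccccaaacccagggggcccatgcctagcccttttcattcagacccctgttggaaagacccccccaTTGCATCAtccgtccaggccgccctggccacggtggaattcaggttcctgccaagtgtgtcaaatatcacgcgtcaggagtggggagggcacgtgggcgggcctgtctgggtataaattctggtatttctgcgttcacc
Inhbe: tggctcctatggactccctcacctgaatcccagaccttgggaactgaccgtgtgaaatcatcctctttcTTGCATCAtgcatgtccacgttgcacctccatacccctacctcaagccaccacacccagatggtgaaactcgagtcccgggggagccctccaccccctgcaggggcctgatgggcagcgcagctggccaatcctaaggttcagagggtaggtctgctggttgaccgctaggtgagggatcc
The match is the same 8 letters, TTGCATCA, in both, from 139 to 132 bases before the start of Fgf21 and from 181 to 174 bases before that of Inhbe. Such a match occurs in 3.45% of all windows, and among the 8 members with a window it also occurs before Rbp4, as TGATGAAA.

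Fgf21 measured -0.47, 0.27 and -0.31 in Ctrl, -0.96, -0.07 and -1.01 in RS, -0.03, -0.32 and -0.58 in DJ and 0.33, -0.32 and -1.71 in DJ526. The highest and the lowest of the 12 livers were thus both in DJ526, and they differed 4.12-fold. The pooled SD within groups, 0.631, was above that of 96.2% of the probes well above background. RS differed from Ctrl by -0.51 (interval -1.49 to 0.46), DJ by -0.14 (interval -1.12 to 0.84) and DJ526 by -0.40 (interval -1.37 to 0.58), with adjusted p between 0.78 and 1.0 from limma. A rise of Fgf21 by 1 on this scale lies outside the intervals for all 3 diets, and a fall by 1 lies inside each of them, in the fit that leaves slide out. The DJ526 estimate was 0.18 without DJ526 replicate 3, and blocking on slide turned all 3 estimates, to 0.07, 0.14 and 0.52. These blocked values share 1 liver, DJ replicate 1, as their only link to Ctrl, and it exceeded the Ctrl mean by 0.14. Klb, the co-receptor of FGF21, was higher in DJ526 than in RS without overlap, by 0.38 (adjusted p = 0.71 from limma, 0.17 with slide blocked, 0.07 with RS and DJ exchanged), and Rora, which encodes a nuclear receptor that activates Fgf21, by 0.51 (adjusted p = 0.499, 0.21 with slide blocked, 0.26 with RS and DJ exchanged). Ppara, the receptor through which fasting raises Fgf21, differed from Ctrl by 0.05 for RS, -0.12 for DJ and -0.08 for DJ526. Of 10 PPAR alpha targets 0 met an unadjusted p under 0.05 against Ctrl in any group, and the same held for 10 genes of the carbohydrate response, whose medians were -0.48 for RS, -0.38 for DJ and -0.26 for DJ526. Of 6 ATF4 targets, Sesn2, a stress-induced regulator of growth signalling, was higher than in Ctrl without overlap, by 0.41 in the DJ livers (adjusted p = 0.75 from limma) and by 0.26 in the DJ526 livers (adjusted p = 0.431), and with slide blocked by 0.37 and 0.40, while the exchange left 0.20 in DJ.

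Inhbe measured 1.72, -0.09 and 0.17 in Ctrl, 1.11, 0.74 and 0.60 in RS, 0.72, 0.54 and 0.81 in DJ and 0.59, -0.04 and 0.48 in DJ526. Ctrl replicate 1 was the highest of the 12 livers and Ctrl replicate 2 the lowest. The estimates against Ctrl were 0.22 for RS (interval -0.62 to 1.05), 0.09 for DJ (interval -0.75 to 0.92) and -0.26 for DJ526 (interval -1.09 to 0.58, and 0.11 with slide blocked). They rest on Ctrl replicate 1. Without it they were 0.78 for RS (adjusted p = 0.458 from limma), 0.65 for DJ (adjusted p = 0.789) and 0.30 for DJ526 (adjusted p = 0.63). DJ526 and RS did not overlap, with a difference of -0.47 (interval -1.31 to 0.36, adjusted p = 0.986 from limma). Among 12 genes of activins, inhibins and their receptors 0 were higher than in Ctrl in any group at an unadjusted p under 0.05, and 1 was lower, in DJ. Fgf21 and Inhbe showed no detectable relation over the mice (r = -0.23, permutation p = 0.467, and rho = -0.31, permutation p = 0.329, adjusted p = 0.623 for both), and r was -0.49 without the 2 livers farthest from the median of Fgf21.

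Angptl4 (chr17:33774900-33781575), an inhibitor of lipoprotein lipase that fasting and fatty acids induce, measured 5.81, 5.42 and 5.93 in Ctrl, 5.38, 6.27 and 5.27 in RS, 5.75, 5.80 and 6.11 in DJ and 6.31, 5.81 and 6.08 in DJ526. RS replicate 2 stood well above the other RS livers, and all groups overlapped. Against Ctrl the estimates were -0.08 for RS (interval -0.62 to 0.45), 0.16 for DJ (interval -0.38 to 0.70) and 0.34 for DJ526 (interval -0.19 to 0.88). Blocking on slide gave -0.11, 0.02 and 0.69, each short of the adjusted threshold. Of 7 genes of lipoprotein lipase, related lipases and other angiopoietin-like proteins 0 met an unadjusted p under 0.05 against Ctrl. Angptl8, which also acts on this lipase, differed by 0.25 between RS and Ctrl, by 0.08 between DJ and Ctrl and by 0.38 between DJ526 and Ctrl, with adjusted p between 0.69 and 1.0 from limma. Angptl4 showed no detectable relation with Fgf21 (r = 0.19, permutation p = 0.551, and rho = 0.26, permutation p = 0.417, adjusted p = 0.661 and 0.623) or with Pdk4, another PPAR alpha target (r = 0.23, permutation p = 0.46, and rho = 0.38, permutation p = 0.218, adjusted p = 0.623 for both). Without the 2 livers farthest from the median of the first gene, r was 0.32 and -0.28.

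Angptl6 (chr9:20873808-20879822), a growth factor, and Rbp4 (chr19:38116620-38125321), the retinol carrier, varied little. Angptl6 lay between 2.63 and 2.92 in all livers, and its estimates against Ctrl, -0.03 for RS, -0.06 for DJ and -0.04 for DJ526, had intervals within -0.24 and 0.15. With slide blocked they were -0.23, -0.18 and -0.30, and those of Rbp4 0.25, 0.24 and 0.21, short of the adjusted threshold. Rbp4 measured 8.19, 8.43 and 8.41 in Ctrl, 8.41, 8.44 and 8.49 in RS, 8.58, 8.49 and 8.33 in DJ and 8.26, 8.57 and 8.50 in DJ526. Its estimates against Ctrl were 0.10, 0.13 and 0.10 in RS, DJ and DJ526, and the upper ends of the intervals were 0.33, 0.35 and 0.32. For these 2 genes a change of the size seen for Hamp lies outside all 3 intervals of the fit without slide. Rbp4 and its partner Ttr showed no detectable relation (r = 0.25, permutation p = 0.439, and rho = 0.31, permutation p = 0.332, adjusted p = 0.623 for both), and r was -0.06 without the 2 livers farthest from the median of Rbp4. In the list of 7 genes of retinol transport and storage 1 was higher in DJ than in Ctrl at an unadjusted p under 0.05, and 0 differed in RS or DJ526.

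Among 20 other secreted regulators of the liver 0 passed the adjusted threshold, and those at an unadjusted p under 0.05 against Ctrl were lower in each group, 2 in RS, 3 in DJ and 2 in DJ526, beside 6.0%, 5.22% and 10.8% of all probes in either direction. Fgl1, a fibrinogen-like protein also called hepassocin, measured 6.51, 6.49 and 6.33 in Ctrl and 6.56, 6.25 and 6.60 in DJ, against 6.02, 6.22 and 5.95 in RS and 6.07, 6.18 and 6.16 in DJ526. The 6 livers with resveratrol were all lower than the 6 without, by 0.36 (-0.36, adjusted p = 0.232 from limma). Blocking on slide gave -0.16, and within slide 2 RS was lower than DJ by 0.31 (-0.31). With the RS and DJ labels exchanged the difference was 0.05 and the separation was lost. Tsku, a secreted regulator of cholesterol handling, was lower in all 6 livers of the rice diets than in all 6 of the starch diets, by 0.62 (-0.62, adjusted p = 0.975 from limma), the block gave -0.36, and within slide 2 RS exceeded DJ by 1.17. The exchange of labels turned it to 0.29. Igfbp2, an IGF-binding protein, was lower than in Ctrl without overlap in RS, DJ and DJ526, by 0.47, 0.63 and 0.48 (-0.47, -0.63 and -0.48, with adjusted p between 0.33 and 0.75 from limma), comparisons which share the Ctrl livers. Blocking on slide gave -0.25, -0.60 and 0.11, so that the direction in DJ526 was not kept.

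The genes whose pattern over the 12 livers was most like that of each hepatokine were sought among 20304 named probes well above background on every array. For Hamp these were Ruvbl2 (r = 0.946) and Ptpdc1 (0.942). For Fgf21 they were Gtf3c1 (0.869) and Pdk4 (0.859), for Angptl4 Zfp36l2 (0.904) and Txnip (0.898), for Inhbe Wdr34 (0.938) and Dpys (0.919), and for Lect2 Csnk2a1 (0.927) and Sdf2 (0.911). Ahsg was most like Dnaic1 and Pebp1 (0.924 each), Fetub like Tmem259 (0.875) and Sik1 (0.852), Rbp4 like Twist1 (0.894) and Tspyl2 (0.882), and Angptl6 like Rab11fip1 (0.874) and Nckap5 (0.823). Pdk4 measured 0.04, 1.48 and 0.94 in Ctrl, 0.60, 0.98 and -0.03 in RS, 0.66, 0.83 and 0.70 in DJ and 1.54, 0.89 and -0.19 in DJ526, so that it shared with Fgf21 both the highest and the lowest liver of the DJ526 group. These are descriptions, since the highest of so many coefficients over 12 points that share arrays and slides is high by selection, and no p is given.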

How the data were processed

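Liver RNA of 12 mice, 3 per diet group, was hybridised to one-colour Agilent 4x44K arrays. The authors deposited the scanner's signal intensity of each spot (Feature Extraction 11.5.1.1, per the file headers) on a linear scale, and their own table of normalized intensity, found here to be the processed signal times 1 factor per array and used as an alternative. The labels name Trizol for the extraction and the methods name a column kit.

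Non-control spots of a probe without an outlier flag were averaged, and each log2 value was set relative to the array's 75th percentile, 953 to 1167 intensity units. limma (version 3.58.1, R 4.3.3) was fitted to all 39429 probes with 1 mean per group and a variance trend, with Benjamini-Hochberg adjustment across every probe at a threshold of 0.05. The prior degrees of freedom had a median of 2.98 beside 8 residual ones. A value was missing on at least 1 array for 68 probes, none of them a hepatokine's. Probes were named by RefSeq accession, which gave a symbol to 27508 (69.8%). For a gene of another list, the brightest of its probes was used. Depth was read as signal over background, and the number of arrays limits the precision. If the cage and group sizes in the methods held, the 3 mice of a group cannot all have come from separate cages. The p-values therefore measure the spread between these mice and not between cages.

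Every hepatokine is named. Genes of other lists are named where limma's unadjusted p was under 0.05 and the groups did not overlap, at most 3 per list and comparison, with Hamp2, Angptl8, Klb, Ppara, Ttr, Tmprss6, Id1 and Pdk4 always included, and Smad7 was added after its values were seen. The members and lists were chosen with earlier results of these data known. Relations across mice used 100000 random permutations, two-sided (scipy 1.17.1, numpy 2.4.6, pandas 2.3.3, Python 3.11.15; Biopython 1.88 for the alignment, matplotlib 3.10.9 for figures). The fit was tested on simulated data. Alternatives were other background corrections, scalings and filters, a fit without the trend, slide or replicate number as a block, only the groups compared, the methods' t-test, RS and DJ exchanged, outlier spots kept and leaving out each array. Promoter sequences were RefSeq's (GRCm38.p6), of which 8 of the 9 genes have a window. The study's blood, behaviour and PCR measurements were not used here.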

Additional observations from a re-analysis of the deposited data

Results flagged for a closer look

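The step from DJ to DJ526 differed from the step from Ctrl to RS for 2 hepatokines at an unadjusted p under 0.05 from limma's interaction term. Of all probes, 6.09% met the same limit, so that nothing is read from this count about the group. For Lect2 the difference was -0.27 on the log2 scale (95% interval -0.51 to -0.02, adjusted p = 0.796 from limma), with RS above Ctrl by 0.07 and DJ526 below DJ by 0.20 (-0.20). For Ahsg it was -0.23 (interval -0.45 to -0.01, adjusted p = 0.803 from limma), with RS above Ctrl by 0.12 and DJ526 below DJ by 0.11 (-0.11). Neither passed the adjusted threshold. Blocking on slide gave -0.03 for Lect2 and -0.23 for Ahsg, with limma's adjusted p of 0.962 and 0.816. Over the 7 hepatocyte markers the median of the same difference was -0.15, and its part in both values was not tested. Groups of 3 are too small for a test of single outlying livers.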

How the results depend on the processing

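The count of hepatokines called stayed at 0 in every comparison under each of the alternatives that gave a value, with 24 alternatives for the comparisons of 2 groups, among them the methods' t-test after Benjamini-Hochberg adjustment. Leaving out each array in turn gave 0 to 0 as well. The mean over the probes of a gene gave no separate value, since each gene has 1 probe. The estimates of Hamp kept their direction in all of them, between 0.80 and 1.51 for RS, 0.52 and 1.17 for DJ, 0.84 and 1.52 for DJ526 against Ctrl, and 0.37 and 1.02 for resveratrol. limma's lowest adjusted p for Hamp was 0.381, 0.531, 0.176 and 0.226, and with normexp background correction it was 0.549, 0.675, 0.419 and 0.388. Lect2 and Ahsg kept the direction of the values that met an unadjusted p under 0.05.

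With the replicate block the values of Hamp were 1.17, 0.80 and 1.12 (adjusted p = 0.584, 0.885 and 0.273 from limma) and the count of calls stayed at 0. The replicate numbers did not pair the mice, since deviations of mice with the same number correlated between -0.354 and 0.407 over 18 pairs (median 0.0324) and those of other mice between -0.422 and 0.444.

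The relation of Ahsg with Fetub changed sign, to -0.26 with quantile normalization, -0.01 with the deposited table and -0.39 for deviations from the group means, and that of Rbp4 with Ttr moved to 0.03 with quantile normalization; the cause was not tested. With 3 mice a group, the 95% intervals of Fgf21, Inhbe, Hamp and Angptl4 against Ctrl span more than 1 on the log2 scale, which limits what could be detected in these 4 genes.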
